A study of Mus musculus with 4 samples.

Results

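Xaf1 and the XIAP-class inhibitors of apoptosis were followed in irradiated mouse stem and progenitor cells that lacked necdin or carried it. The 7 genes were Xaf1, the inhibitors Xiap, Birc2, Birc3 and Birc6, and the antagonists Diablo and Htra2. Xaf1 was picked because its signal differed between the groups compared here, and the other 6 were added for their place in the pathway. They were represented by every probe set of the array whose annotation names one of these genes alone, which gave 22 of 45101 probe sets and 7 of 18194 genes. The main probe set of a gene was the one of highest mean log2 signal.

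The necdin null group held LSK cells (Lin-Sca-1+c-Kit+) of the bone marrow, the sorted fraction that contains the stem cells of the blood and their first progeny, taken from mice whose blood system had been rebuilt from fetal liver of necdin null donors. The wild type group was the same fraction from mice rebuilt from wild type fetal liver. All mice were labelled C57BL/6, all carried transplanted fetal liver cells, and all had received a sublethal dose of 6.5 Gy, so no unirradiated cells were compared. Each group had 2 Affymetrix arrays. The ages, the time after irradiation, the genotype of the hosts, the host cells left in the marrow, the part of Ndn that was deleted and the number of animals per array are not given in the sources used here. P-values therefore rest on the spread between these arrays, some of which may be technical.

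Inhibitor of apoptosis proteins carry BIR domains, zinc-binding folds with which XIAP holds caspases in check, and several of them also carry a RING domain that attaches ubiquitin. Diablo (Smac) and Htra2 (Omi) sit in mitochondria, and once released they occupy the BIR grooves and free the caspases. XAF1 is a zinc-finger protein that binds XIAP and is induced by interferon. In blood-forming cells, cIAP1 and cIAP2, encoded by Birc2 and Birc3, are best known for their part in cell death and NF-kB signalling downstream of the TNF receptors.

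Ndn, the gene of the labels, had 8 probe sets, of which 5 passed the filter on low values (a mean log2 value of at least 5.09, which 40% of probe sets did not reach). At all 5 the groups lay apart, meaning that their ranges did not overlap, with necdin null lower. Probe set 1435382_at gave signals of 2.73 and 12.1 where necdin was null against 559 and 391.8 in wild type. Kit, the receptor for stem cell factor and a marker of the sort, lay between 3744 and 6617 on the 4 arrays. Ly6a, the Sca-1 gene, had no probe set named for it alone. Of 8 genes tested of the sort and of early progenitors, 3 had higher and 5 lower values in necdin null cells, and Slamf1, a stem cell marker named after its values were seen, gave 338 and 233 on the necdin null arrays against 397 and 74.4 on the wild type arrays. Of 6 T and NK markers, 1 lay above the filter on low values, and their signals summed to 62.1 and 171 on the necdin null arrays against 88.8 and 169.8 on the wild type arrays. All 10 neutrophil markers were measured, with summed signals of 79259 and 178197 on the necdin null arrays against 57304 and 122276 on the wild type arrays, so replicate 2 was the higher array in both groups. All 10 lay higher on average where necdin was null. The groups lay apart upward for 1 of the 10, where 12.8% of all genes tested did so, and 0 were called (0% of all genes). The median log2 difference of the 10 was 0.61, against -0.03 for all genes tested. Leaving out replicate 1 of the necdin null arrays made that median 1.29 and leaving out replicate 2 made it -0.02; of the wild type arrays, the first gave -0.07 when left out and the second 1.48. For the T and NK, neutrophil, B lineage, monocyte, erythroid and dendritic markers alike, the summed signals of the groups overlapped. Necdin null replicate 2 also had the highest 3' to 5' ratio of Gapdh, a sign of RNA quality, at 15.8 against 9.96 to 11.7 on the other arrays. In bulk samples, fewer cells of a type and less RNA per cell cannot be told apart.

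Xaf1 differed between the groups by more than any other of the 7 genes. Its main probe set, 1443698_at, gave signals of 1256 and 1276 on the necdin null arrays against 483 and 466 on the wild type arrays. Both necdin null arrays lay above both wild type arrays, and the arrays of a group nearly coincided. The group means were 1266 ± 14.5 in necdin null and 474 ± 12.1 in wild type cells (SD, n = 2 each), a ratio of 2.67 and a difference of 1.41 on the log2 scale used throughout, log2(signal + 3.80). As Xaf1 was chosen for this contrast, no test is given for it.

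Each of the 4 possible pairs of a necdin null and a wild type array placed Xaf1 between 1.37 and 1.45 higher in necdin null. The 2 necdin null arrays differed by 0.02 and the 2 wild type arrays by 0.05, where the median gene of the 12680 tested differed by 0.32 and 0.31. Among those 12680 genes, 57 (0.450%) had within-group differences as small as these in both groups. A positive difference at least as large with groups apart was seen for 76 genes (0.599%), Xaf1 among them. Because Xaf1 was picked for its difference on these same arrays, these shares only describe it and are no test. The neutrophil markers, with their higher values in necdin null cells, and the Gapdh ratio were given above, and their part in the Xaf1 difference was not tested. The arrays also differed in Xist, the transcript of the inactive X, and in Eif2s3y of the Y chromosome, as given with Xiap below. The part of that in the Xaf1 difference was not tested either.

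The second Xaf1 probe set, 1443621_at, did not show the difference. It gave 47.7 and 36.1 on the necdin null arrays against 32.6 and 47.2 on the wild type arrays, with overlapping groups (log2 difference 0.07). These signals lay just above the filter at 30.3, so the higher Xaf1 signal in necdin null cells rests on 1 probe set.

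**Figure D1:**
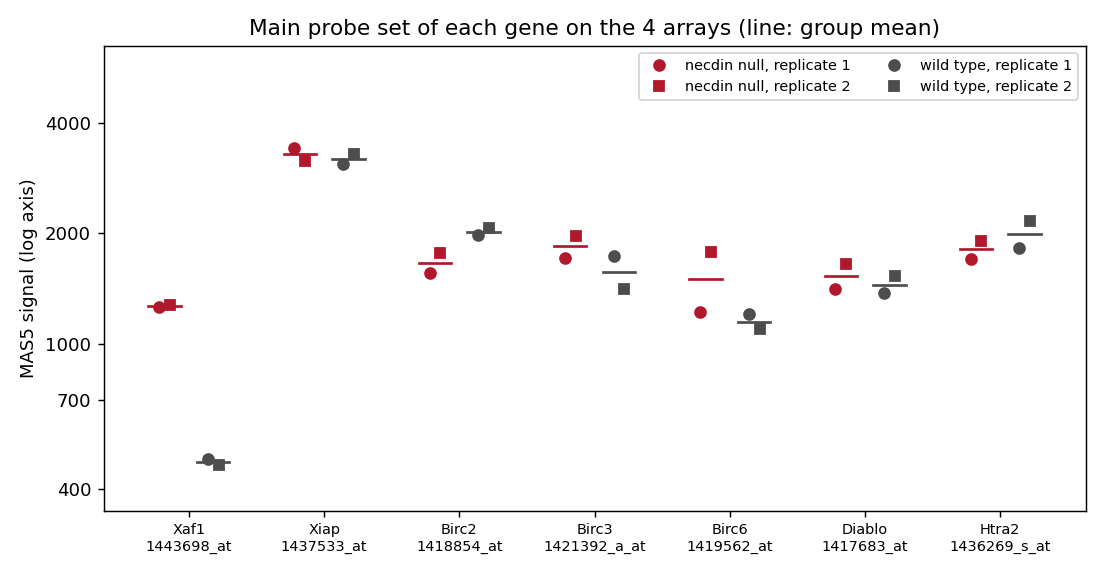
MAS5 signal (log axis) of the main probe set of each of the 7 genes, with circles for replicate 1, squares for replicate 2 and a line at the group mean, necdin null left of wild type. Xaf1 lies at 1256 and 1276 on the necdin null arrays against 483 and 466 on the wild type arrays, while for Xiap, Birc3, Diablo and Htra2 the groups overlap.

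The promoter letters of Xaf1 are printed because interferon induction is its best known control, together with those of Birc2, which had the most matches to the same motif and lay lower in necdin null cells. RefSeq promoter windows (GRCm38.p6, 250 bases before to 50 after a start) were found for 6 of the 7 genes, 9 windows in all; Htra2 is named only. Both are written 5′ to 3′ on the strand of the gene, Xaf1 at chr11:72301379-72301678 on the plus strand and the second of 2 Birc2 windows at chr9:7836757-7837056 on the minus strand, with matches to AANNGAAA, the core read by interferon regulatory factors, in capitals on either strand.
Xaf1: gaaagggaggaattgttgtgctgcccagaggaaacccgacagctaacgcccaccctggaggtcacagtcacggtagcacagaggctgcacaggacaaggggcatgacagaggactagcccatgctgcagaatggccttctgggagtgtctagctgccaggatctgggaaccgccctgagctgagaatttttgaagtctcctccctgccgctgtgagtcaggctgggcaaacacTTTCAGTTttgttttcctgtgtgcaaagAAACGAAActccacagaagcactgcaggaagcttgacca
Birc2: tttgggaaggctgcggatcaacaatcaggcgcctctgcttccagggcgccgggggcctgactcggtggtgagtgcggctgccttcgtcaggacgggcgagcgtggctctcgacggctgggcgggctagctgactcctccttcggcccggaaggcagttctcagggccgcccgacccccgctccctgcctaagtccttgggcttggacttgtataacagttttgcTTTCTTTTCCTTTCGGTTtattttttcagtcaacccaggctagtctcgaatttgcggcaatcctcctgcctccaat

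Xaf1 held 2 matches to AANNGAAA, at bases 234 to 241 and 262 to 269 of its window, Birc2 held 3 overlapping ones in its second window and 0 in the first, and Birc3 held 1. The windows of Xiap, Birc6 and Diablo held none. At least 1 match was present in 23.9% of all 32851 promoter windows and at least 2 in 5.34%, against 54.3% and 42.9% of the 35 windows of the interferon genes described further on. A match describes letters and is not a binding site.

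Xiap, the caspase inhibitor that XAF1 binds, had overlapping groups at its main probe set. Probe set 1437533_at gave 3411 and 3159 on the necdin null arrays against 3089.7 and 3298 on the wild type arrays. The log2 difference was 0.04, standard error 0.18 (95% interval -0.37 to 0.45; limma adjusted p = 0.9985). Xiap lies on the X chromosome, and the arrays differed in the signal of Xist, the transcript of the inactive X. Xist probe set 1436936_s_at gave 4841 and 76.8 on the necdin null arrays against 9930 and 7182 on the wild type arrays. At Xist probe set 1427262_at the groups overlapped, with 5569 and 91.6 on the necdin null arrays against 3821 and 4551 on the wild type arrays. Eif2s3y, a gene of the Y chromosome, gave 2273 and 2987 on the necdin null arrays against 32.6 and 1974 on the wild type arrays (1417210_at). The part of these differences in the values of Xiap and of the other members was not tested.

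The weaker Xiap probe sets above the filter gave higher mean values in necdin null cells. A second probe set, 1456088_at, which the annotation ties to the same representative sequence as the main one, gave 602 and 430.4 on the necdin null arrays against 225 and 343 on the wild type arrays. The groups did not overlap, and its log2 difference of 0.87 (95% interval 0.08 to 1.66) had an unadjusted p of 0.035 and a limma adjusted p of 0.996 over 27061 probe sets. Of the 7 Xiap probe sets, 4 lay above the filter, all 4 were higher in necdin null and 2 had groups apart, where 15.4% of all probe sets lay apart upward. The other 3 had signals of at most 30.4 and log2 differences of -0.18, 0.57 and -0.28. The brightest and the second brightest probe set of the gene thus did not give the same size of difference, and which of them follows the transcript was not tested.

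Birc2, which encodes cIAP1, was the inhibitor with lower values in necdin null cells. Its single probe set gave 1558 and 1768 on the necdin null arrays against 1976 and 2067 on the wild type arrays. Both necdin null arrays lay below both wild type arrays, with a log2 difference of -0.28 (standard error 0.19, 95% interval -0.71 to 0.15; limma adjusted p = 0.9985). Groups lay apart in the lower direction for 17.7% of all genes tested, so this pattern was common.

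Birc3, the neighbour of Birc2 on the chromosome and the gene of cIAP2, overlapped between the groups. It gave 1711 and 1973 on the necdin null arrays against 1733 and 1409 on the wild type arrays (log2 difference 0.23, 95% interval -0.23 to 0.70; limma adjusted p = 0.9985). The 2 genes are close copies of each other, and how far their probe sets share signal was not tested. The second Birc3 probe set, with signals between 6.51 and 69.1, lay below the filter.

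Birc6, a giant BIR protein that conjugates ubiquitin, had the largest difference among the inhibitors and the largest spread. Its main probe set gave 1219 and 1776 on the necdin null arrays against 1203.5 and 1093 on the wild type arrays. The groups lay apart by little, and necdin null replicate 1 nearly equalled wild type replicate 1. The log2 difference was 0.36 with a standard error of 0.24 (95% interval -0.18 to 0.90; limma adjusted p = 0.9985), smaller than the 0.54 between the 2 necdin null arrays. The high array was necdin null replicate 2, which also stood apart in its Gapdh ratio; the part of that in the Birc6 value was not tested. Without it the log2 difference was 0.09, and without necdin null replicate 1 it was 0.63. All 6 Birc6 probe sets lay above the filter, 5 were higher in necdin null and 3 had groups apart in that direction, as did 15.4% of all probe sets. Their log2 differences ran between -0.09 and 1.12. The highest was that of 1427488_a_at, whose groups overlapped. It gave 31.5 and 77.7 on the necdin null arrays against 32.6 and 13.0 on the wild type arrays. Necdin null replicate 2 thus carried this probe set past the filter.

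Both mitochondrial antagonists had overlapping groups. Diablo, whose product binds the BIR grooves of XIAP, gave 1406 and 1647 on the necdin null arrays against 1371 and 1528 on the wild type arrays (log2 difference 0.07, 95% interval -0.38 to 0.53). Htra2, a serine protease with the same kind of binding end, gave 1708 and 1909 on the necdin null arrays against 1820 and 2158 on the wild type arrays (log2 difference -0.13, 95% interval -0.58 to 0.31). The limma adjusted p was 0.9985 for both genes. The second Htra2 probe set, at 1271 and 855 on the necdin null arrays against 1080 and 1419 on the wild type arrays, had a log2 difference of -0.25. The second Diablo probe set, with signals of at most 66.4, lay below the filter.

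**Figure D2:**
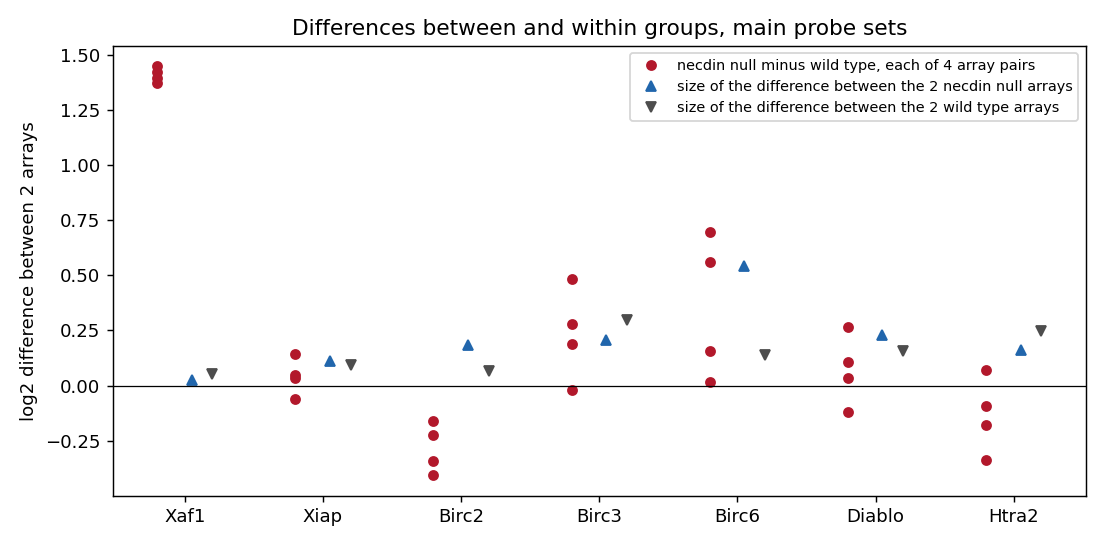
Log2 differences between 2 arrays for the main probe sets, with circles for the 4 pairs of a necdin null and a wild type array and triangles for the size of the difference between the 2 arrays of a group. The Xaf1 pairs lie between 1.37 and 1.45, while for Birc6 the pairs run between 0.02 and 0.70 and the 2 necdin null arrays differ by 0.54.

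None of the 6 genes other than Xaf1 passed the threshold of 0.05 on the limma adjusted p, as none of the 12680 genes did (0%). At an unadjusted p under 0.05 there were 0 of the 6 and 3.02% of all genes. Of the 6, 4 had higher and 2 had lower values in necdin null cells, and their median log2 difference was 0.06 against -0.03 for all genes tested. The groups lay apart for 2 of 6, against 30.5% of all genes. The 95% intervals of the 6 main probe sets ran between 0.609-fold and 1.86-fold, so a 2-fold change lay outside each of them. This does not hold for weaker probe sets of the same genes. For example, the interval reached 3.15-fold at Xiap 1456088_at and 3.12-fold at Birc6 1419563_at.

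Over probe sets, 17 of the 22 lay above the filter, 15 of them for genes other than Xaf1. Of these 15, 11 were higher and 4 lower in necdin null, 5 lay apart upward and 1 downward, and 0 passed (0% of 27061 probe sets passed; limma adjusted p at least 0.996 for the 15). Groups lay apart upward for 15.4% and downward for 16% of all probe sets. An unadjusted p under 0.05 was reached by 1 of the 15, the Xiap probe set 1456088_at, and by 3.48% of all. Probe sets of 1 gene share their transcript and are not replicates.

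**Figure D3:**
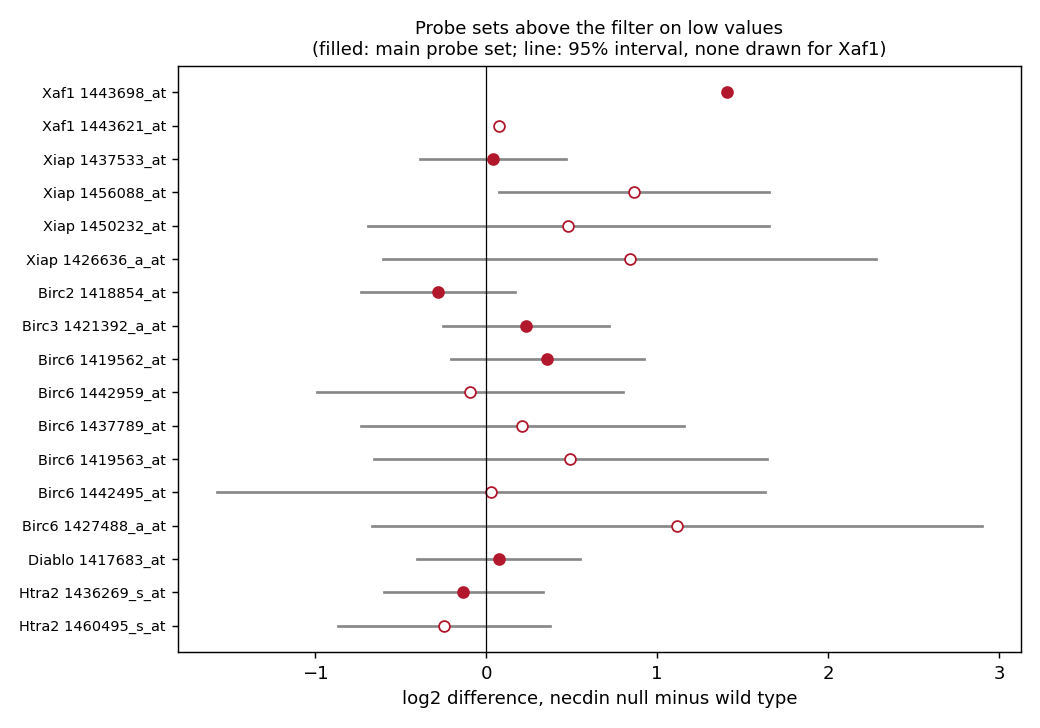
Log2 difference, necdin null minus wild type, for the 17 member probe sets above the filter, with the main probe set filled and lines for the 95% interval from limma (none for Xaf1, which was chosen on this contrast). Among the 15 with an interval, that of Xiap 1456088_at, at 0.87, is the only one that does not reach 0.

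Differences within an array do not move with the scaling of that array. The mean log2 value of the 2 antagonists minus that of the 4 inhibitors was -0.24 and -0.25 on the necdin null arrays against -0.26 and 0.01 on the wild type arrays. These overlapped, and wild type replicate 2 stood apart from the other arrays. Diablo minus Xiap was -1.28 and -0.94 on the necdin null arrays against -1.17 and -1.11 on the wild type arrays, also overlapping. Xaf1 minus Xiap was -1.44 and -1.31 on the necdin null arrays against -2.67 and -2.81 on the wild type arrays, a difference of 1.37 that repeats the choice of Xaf1 and holds for the main Xiap probe set. Signals of different probe sets have no shared scale, so only the differences between arrays can be read.

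Interferon genes, the class of XAF1, were split between the directions. Of 42 listed, Xaf1 not counted, 37 were tested, 21 had higher and 16 lower values in necdin null cells, and 0 passed (limma adjusted p at least 0.9985). The median log2 difference was 0.06, against -0.03 for all genes. It was -0.045 without necdin null replicate 1 and -0.024 with median centring. The groups lay apart upward for 8 of 37 and downward for 2 of 37, where 12.8% and 17.7% of all genes did so. The highest difference among them was 0.81, below the 1.41 of Xaf1, which was picked for its difference. The lowest was -1.08, for Oas3, whose groups overlapped. Mx1, at -0.94, lay apart downward, with signals of 26.6 and 19.4 on the necdin null arrays against 28.6 and 76.4 on the wild type arrays. Oas3 and Mx1 are named after their values were seen. Centred on each gene's own mean, the list had median log2 values of 0.05 and -0.04 on the necdin null arrays against -0.07 and -0.0015 on the wild type arrays, which overlapped.

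Single interferon genes had higher values on both necdin null arrays. Iigp1, a GTPase of cell-autonomous immunity, gave 2169 and 1661 on the necdin null arrays against 1238 and 1280 on the wild type arrays (log2 difference 0.59). Ifit1, which binds foreign RNA, gave 261 and 330.0 on the necdin null arrays against 136 and 202 on the wild type arrays (0.81). Both lay apart without passing the threshold. Irf7 and Stat2, factors of the interferon response, had log2 differences of -0.02 and 0.12 with overlapping groups, and both are named after their values were seen.

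TNF receptor and NF-kB genes around cIAP1 and cIAP2 had 22 of 27 tested, 10 higher and 12 lower, a median log2 difference of -0.05 (-0.16 to 0.06 leaving out 1 array) and 0 called. Ikbkb, the kinase that releases NF-kB, gave 1690.1 and 1595 on the necdin null arrays against 1082 and 1056 on the wild type arrays, a log2 difference of 0.62 (standard error 0.20; unadjusted p = 0.012, limma adjusted p = 0.9985). The groups lay apart, and of its 3 probe sets past the filter 2 pointed upward. Rel, the NF-kB subunit c-Rel, gave 78.5 and 73.9 on the necdin null arrays against 158 and 140.0 on the wild type arrays (-0.93; limma adjusted p = 0.9985), also with groups apart.

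Partners that bind, release or process the members had 12 of 14 tested, 8 higher and 4 lower, a median of 0.16 (0.0064 without necdin null replicate 2) and 0 called. Siah1a, a ubiquitin ligase that can target XIAP, gave 1244 and 1078 on the necdin null arrays against 1934 and 1439 on the wild type arrays (log2 difference -0.53, unadjusted p = 0.044, limma adjusted p = 0.9985), and 2 of its 3 probe sets pointed downward. Apaf1, the scaffold that activates caspase-9, gave 1325 and 1532 on the necdin null arrays against 1213 and 1161 on the wild type arrays (0.26), and 1 of its 2 probe sets was higher. Casp9, the initiator caspase that XIAP binds, gave 338 and 450.4 on the necdin null arrays against 416 and 486 on the wild type arrays (-0.20), overlapping, and is named after its values were seen.

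Other BIR proteins had 4 of 6 tested, all 4 higher by 0.13 to 0.21, with 0 called. Naip5, a sensor of bacterial flagellin, gave 804 and 815 on the necdin null arrays against 674 and 739 on the wild type arrays (log2 difference 0.20). Birc5, the mitotic protein survivin, gave 1706 and 1167 on the necdin null arrays against 1499.8 and 1068 on the wild type arrays (0.16), and its groups overlapped. The limma adjusted p was 0.9985 for both.

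**Figure D4:**
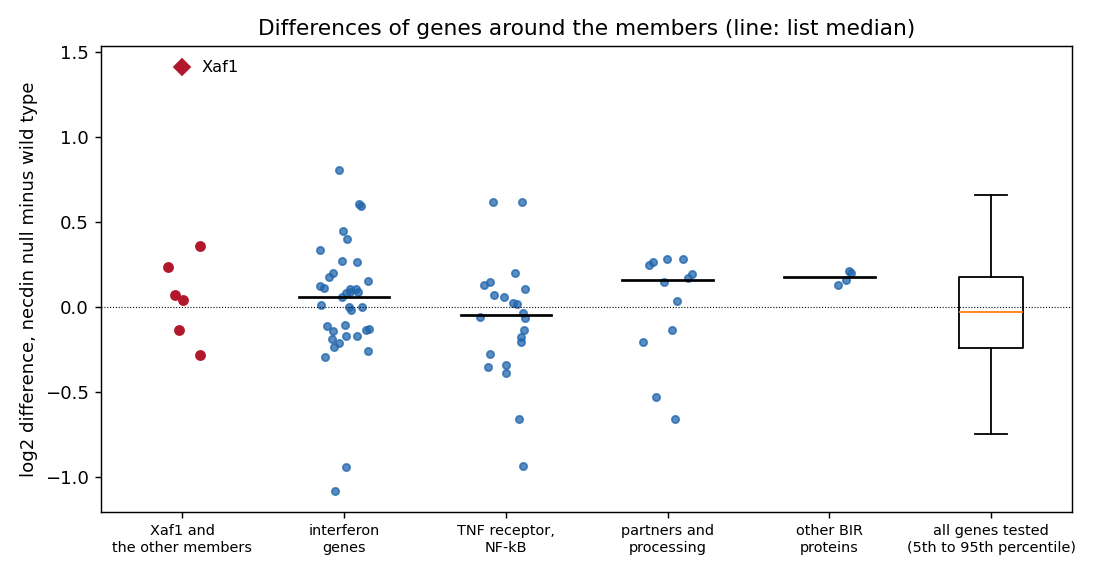
Log2 difference, necdin null minus wild type, of the 7 members (diamond for Xaf1) and of the genes tested in each list, with a line at the list median, beside all genes tested (box with quartiles, whiskers at the 5th and 95th percentile). Xaf1 at 1.41 lies above all genes of the 4 lists, whose medians lie between -0.05 and 0.18, and above the 95th percentile of all genes, 0.66. Xaf1 was picked for this difference, so its place only describes it and is no test.

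The genes whose pattern over the 4 arrays was most like that of Xaf1 were Hook2, Slc22a23, Clec4b1, Bcat2 and Ddit4l. The distance between their profiles and that of Xaf1, each centred on its own mean, ran between 0.19 for Hook2 and 0.26 for Ddit4l in log2 units. Hook2, a linker of cargo to microtubules, gave 90.7 and 80.9 on the necdin null arrays against 34.7 and 29.9 on the wild type arrays. Slc22a23 and Clec4b1 lay below the signal of 30.3 on both wild type arrays and Hook2 and Ddit4l on 1 of them, so Slc22a23 and Clec4b1 passed the filter only through the necdin null arrays. All 5 were dim, with signals of at most 123, and for Ddit4l 1 of the 2 probe sets above the filter pointed upward. No interferon gene and no other member was among them. With only 5 taken from all genes tested, such an absence was likely in any case and cannot bear on a link to Xaf1.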

How the data were processed

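Gene expression was measured on 4 arrays, 2 necdin null and 2 wild type, grouped by the labels. The authors deposited intensity values that are linear MAS5 signals, per the submitters' processing notes, which name no version; the mean after trimming 2% at each end is 500.004 on each array. Per GEO's platform annotation, 34958 of 45101 probe sets had 1 gene symbol, 932 several and 9211 none. Values were taken as log2(signal + 3.80), the pseudocount being the 10th percentile of all values, without further normalization, which understates differences of low genes. Each gene was its probe set of highest mean, and those at or above the 40th percentile of probe sets (log2 value 5.09) were tested, 12680 genes or, in a second fit, 27061 probe sets. Groups were compared with limma 3.58.1 in R 4.3.3 (intensity trend, two-sided, Benjamini-Hochberg over all features); the code was tested on simulated data. An exact permutation test of 2 against 2 cannot go below 0.333. The number of arrays limits the precision.

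The 7 members, the lists around them and the rule for named genes were chosen with earlier results of these data known. Named were the members, Ndn, the 2 genes of smallest p in each list and the 5 most like Xaf1. Lists were only counted. Alternatives changed the pseudocount, filter, normalization, variance model and probe sets, used the replicate number as a block, or dropped 1 array in turn.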

Additional observations from a re-analysis of the deposited data

How the results depend on the processing

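All alternatives were planned before they were run, though earlier results of these data were known by then. None of the 6 genes besides Xaf1, of their probe sets or of the genes in the 4 lists was called under any alternative, and the lowest limma adjusted p of the 6 was 0.702, for Birc6 without necdin null replicate 1. Xaf1 kept its direction in all 13 alternatives, at 1.33 with median centring, 1.46 with quantile normalization and 1.38 to 1.44 leaving out 1 array. Of 76 values of the other 6 genes, 6 changed sign, all near 0: median centring, which moved the median of all genes to -0.11, gave -0.041 for Xiap and -0.0084 for Diablo, and leaving out 1 array gave -0.015 to 0.10 for Xiap and -0.042 to 0.19 for Diablo. Leaving out 1 array, Birc6 ranged from 0.09 to 0.63, Birc3 from 0.08 to 0.38, Htra2 from -0.26 to -0.01 and Birc2 from -0.37 to -0.19. The antagonists minus the inhibitors differed by -0.12 between groups and by -0.25 to 0.02 leaving out 1 array. Without the probe sets of suffix _s_at, _x_at or _a_at, Htra2 had none left and Birc3 only 1 below the filter, so that alternative gave no value for them or for the antagonists minus the inhibitors. The count of called genes, 0, was 3 with the replicate block and 0 to 4 leaving out 1 array, none of them a member; a lone array was assumed to vary like the others. The block left the 6 genes at an adjusted p of 0.934 or higher. Over all genes tested, the replicate 2 minus replicate 1 differences of the 2 groups correlated at 0.11. This rests on only 2 pairs of same-numbered arrays, and the numbers were not treated as pairing. In limma, however, 1119 genes had an unadjusted p under 0.05 by replicate number and 383 by genotype. The cause of these shifts was not tested.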

Other observations

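The genes beside Xaf1 on its chromosome were looked up after its values were seen. Of the 4 protein-coding genes on each side, 7 had a named probe set and all 7 were tested, 4 with higher and 3 with lower values in necdin null cells and log2 differences between -0.68 and 0.74 and a limma adjusted p of 0.9985 or higher. The nearest measured one before Xaf1, Slc13a5, a citrate transporter, gave 104 and 169.0 on the necdin null arrays against 77.8 and 109 on the wild type arrays, with overlapping groups. 4930563E22Rik had the largest difference of the 7, at 260.3 and 327 on the necdin null arrays against 188 and 159.5 on the wild type arrays (log2 difference 0.74), and its groups lay apart. The nearest measured one after Xaf1, Tekt1, a protein of cilia, gave 32.7 and 30.4 on the necdin null arrays against 43.2 and 64.7 on the wild type arrays, close to the filter on low values.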
